A study of Homo sapiens with 45 samples.

Results

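HES and HEY genes encode small repressors of transcription of the basic helix-loop-helix class, and 8 of them, HES1, HES3, HES4, HES5, HES6, HEY1, HEY2 and HEYL, were followed while human cells passed from a tail bud progenitor towards spinal motor neurons. The 8 were taken as a named list from the 58233 genes in the deposited tables, with earlier results of these data known. All 8 had counts enough to be tested. By the identifiers and positions of GENCODE release 29 (GRCh38), HES1 lies on chromosome 3 from 194136145 to 194138732, HES6 on chromosome 2 from 238238267 to 238240662 and HEY2 on chromosome 6 from 125747664 to 125761269. Chromosome 1 carries HES3 from 6244192 to 6245578, HES4 from 998962 to 1000172, HES5 from 2528745 to 2530245 and HEYL from 39624153 to 39639945, and HEY1 is on chromosome 8. All are annotated as protein-coding.

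When a Delta or Jagged ligand on a neighbouring cell binds a Notch receptor, the receptor is cut and its inner part joins RBPJ and a Mastermind protein on DNA, where HES and HEY genes are among the best known targets. HES1 and HES5 recruit TLE corepressors and hold back proneural factors such as the neurogenins, which in turn drive Delta ligands, so that progenitors and newly forming neurons keep each other in check. HES6 stands apart in this family, since it opposes HES1, follows proneural factors and favours neuronal differentiation. HES3 is known from the early neuroepithelium, HES4 is a human member that the mouse has lost, and HEY1, HEY2 and HEYL are Notch targets studied most in heart and vessels.

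The cells were H9, a line of human embryonic stem cells long in use. For 3 days they had been grown as neuromesodermal progenitors with CHIR99021, bFGF, SB431542, DMH1 and a ROCK inhibitor, and on day 0 they were replated with retinoic acid (RA, 100 nM), a signal that makes neural tissue posterior, and with SAG (500 nM), which switches on Hedgehog signalling and so ventral fates. Polyadenylated RNA was sequenced on 15 days, days 0 to 15 without day 3, with 3 libraries a day called bioreps, 45 in all. Day 0 is labelled as the control and every later day as treated, so time, replating and treatment cannot be told apart. All libraries come from this 1 line with no genetic change, and since the labels say no more than biorep, p-values speak of the scatter among these libraries alone.

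Levels are given as CPM for 1 gene across days. CPM is the count scaled by the library total of the tested genes times a normalization (TMM) factor. TPM, which is scaled for transcript length and depth, is given wherever genes are compared with each other. Means carry the SD of 3 libraries. A log2 change is given with its SE from edgeR's quasi-likelihood fit over all 45 libraries, and a gene was called changed at a p under 0.05 after Benjamini-Hochberg adjustment over the 19436 genes tested. Library totals ran from 22835854 to 39066286 counts, so that 3 counts over the libraries of day 15 correspond to 0.0265 CPM. A bulk sample cannot tell fewer cells of a type from less RNA per cell.

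Markers fixed as lists bear on what the libraries hold. Although day 0 is labelled as neural progenitor cells, 8 neuromesodermal and presomitic markers summed to 1436 to 1579 CPM there and to 110.4 to 118 CPM on day 1. Of these, NKX1-2 (978 CPM) and CDX2 (490.4 CPM), genes of the caudal epiblast, made up most of day 0. The presomitic genes TBX6 (1.28 CPM), MSGN1, MESP2 and RIPPLY2 (at most 0.102 CPM each) were near nil, and LFNG, which is also a Notch gene and rose, had 64.3 CPM of the day 1 sum. The sum of 8 neural progenitor markers went from 2220 CPM on day 0 to 5666 CPM on day 1 and 6885 CPM on day 4, and that of 8 neuronal markers from 423 CPM on day 1 to 5187 CPM on day 9 and 3414 CPM on day 10. Radial glia and astrocyte markers stood at 104 CPM on day 4 and 383 CPM on day 15. On day 14 SLC1A3 (187 CPM), SOX9 (80 CPM), NFIA (41.4 CPM) and NFIB (29.9 CPM) made up most of their sum. ALDH1L1 (0.667 CPM), AQP4 (0.36 CPM) and GFAP (0.0751 CPM) were near nil on that day. The 6 endothelial markers, of interest because HEY genes are vessel genes, summed to at most 64.2 CPM in any library, a value of day 1. On day 1 TEK (61.3 CPM) made up most of the sum. PECAM1, CDH5, KDR, CLDN5 and ERG had counts but at most 0.881 CPM each on that day. Neural crest markers summed to 75.6 CPM on day 0 and to between 1.36 and 3.07 CPM from day 4 on. On day 0 ERBB3 (66.2 CPM) and SNAI2 (8.73 CPM) made up most of that sum. SOX10 (0.562 CPM) and TFAP2A (0.0409 CPM) were near nil there, and FOXD3 and TFAP2B had no counts. The part of these cell types in the results that follow was not tested.

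Because RBPJ binds the letters GTGGGAA, the 300 bases around the RefSeq start of each gene (250 before and 50 after, GRCh38.p14) were searched for them on both strands. Promoters of 7 of the 8 genes were in the table, all but that of HEY1. GTGGGAA occurred in 5 of the 7, against 6.25% of 35116 promoters of the same length, and 2 copies stood in the promoters of HES5 and HEY2, against 0.248% of promoters with 2 or more. The stretches that hold them are shown, from RefSeq, 5′ to 3′ on the strand of the gene, with GTGGGAA or its reverse complement TTCCCAC in capitals, since these are the Notch response letters that 5 of the genes hold. A further TGGGAA in the HES1 stretch, the shorter core that GTGGGAA contains, is in capitals too.
HES1, chr3:194136060-194136089, plus strand: actGTGGGAAagaaagttTGGGAAgtttca
HES4, chr1:1000148-1000177, minus strand: agtGTGGGAAagaatgcggagccgggttca
HES5, chr1:2530318-2530347, minus strand: agtGTGGGAAcggccgcggcgcccggactc
HES5, chr1:2530478-2530507, minus strand: tgctaatgagggcgagcgcgTTCCCACagc
HEY2, chr6:125749625-125749654, plus strand: ggcGTGGGAAagagccgctaggagcagacc
HEY2, chr6:125749399-125749428, plus strand: gtaccaggtccgcggccgcgTTCCCACgcc
HEYL, chr1:39639812-39639841, minus strand: ggcggcgaccgcctagggccTTCCCACggc

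Counted from the RefSeq start, the forward match lay at -85 in HES1, -77 in HES4 and -81 in HES5, so that these 3 stood within 8 bases of each other. The reverse matches lay at -224 in HES5, -213 in HEY2 and -178 in HEYL, and the forward match of HEY2 at -4. GTGGGAA was not found in the windows of HES3 and HES6. The RefSeq starts of HES6 (238240038), HEY2 (125749632) and HEYL (39639643) lie inside the GENCODE genes. Their outermost starts in GENCODE fall outside these windows and were not searched. The shorter TGGGAA, which every GTGGGAA also holds, was in 24% of all promoters and in 6 of the 7, HES6 being the one without it. Of the letters that HES and HEY proteins themselves favour, CACNAG stood 4 times in the HES1 window and 1 time in that of HES3, against 38% of promoters with any. CACGNG stood 4 times in the HES1 window and in no other member's, against 30.5% of promoters. The matches at -132 and -58 in HES1 count under both motifs, since the letters CACGAG fit either. These are matches of letters in fixed windows and no measurement of binding.

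The 8 genes reached their highest means on 6 different days and in an order that ran through the whole time course. HES3 was highest on day 0, HES5 on day 2, HEY2 and HEYL on day 6, HES4 on day 7, HES6 on day 8, and HES1 and HEY1 on day 14. These days were the same in CPM, in CPM without the scaling of library totals and in TPM. Only HES3, HES5 and HES6 had a highest day that no library of another day reached. Day 7 of HES4 was overlapped by days 4, 5 and 6, and day 6 of HEY2 by days 7 and 8. Day 6 of HEYL was overlapped by days 5 and 7, so the order among HEY2, HEYL and HES4 was not resolved. All 8 differed over the 15 days in the F test (adjusted p from 3.9e-38 for HES3 to 1.9e-14 for HES6), as did 91.5% of all genes tested, so that this test sets the members apart from few others.

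**Figure D1:**
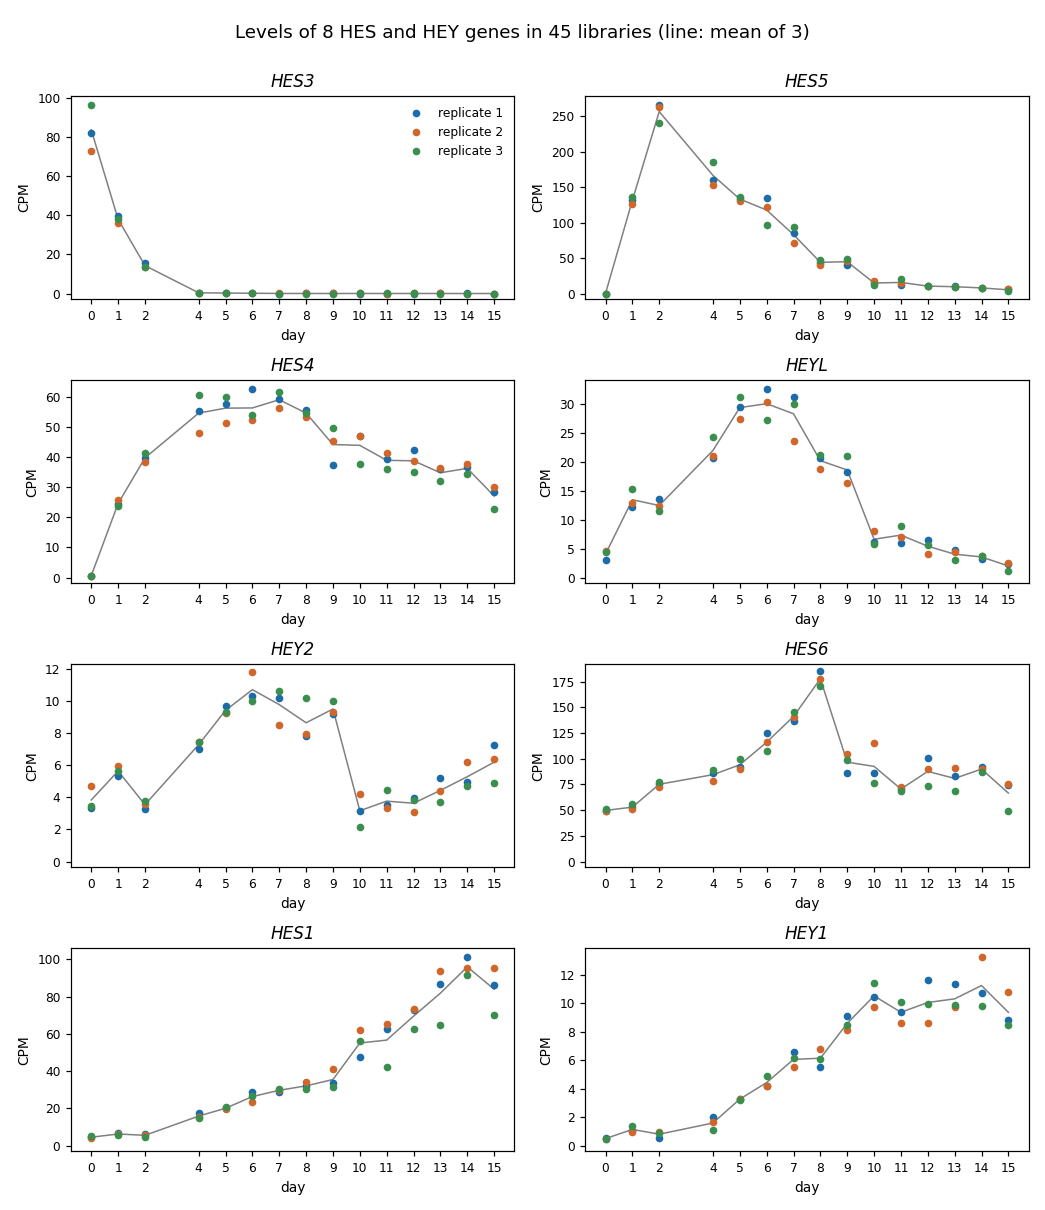
CPM of each gene in each of the 45 libraries (points, colour by replicate number) against the day, with a line through the means of 3. HES3 is high before day 4. HES5 has its highest mean on day 2, HES4, HEYL, HEY2 and HES6 in the middle, and HES1 and HEY1 late.

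HES3, known from early neuroepithelium, had 82, 72.8 and 96.1 CPM in the 3 libraries of day 0, 39.8, 36 and 38 CPM on day 1, and 15.5, 13.6 and 13.7 CPM on day 2. On day 4 the values were 0.318, 0.497 and 0.288 CPM. The libraries of these 4 days did not overlap, each day lying under the one before. The log2 change was -1.14 ± 0.13 from day 0 to day 1 (adjusted p = 5.7e-10), -1.41 ± 0.13 to day 2 (adjusted p = 1e-10) and -5.32 ± 0.22 from day 2 to day 4 (adjusted p = 1.5e-20). From day 7 on it had at most 4 counts in the 3 libraries of a day together. Against 30 counts on day 4 it had 3 on day 8, a ratio of 11.8 with a 95% counting interval from 3.68 to 60.6, and it was called lower there too (adjusted p = 4.1e-05). No count was seen on day 15, where the level was at least 3161-fold lower than on day 0. HES3 was the only member whose highest day was day 0, before RA and SAG.

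HES5, the Notch target most tied to neural progenitors, moved the other way from day 0 to day 2. It had 1 count in the 3 libraries of day 0 together, and 132, 126 and 136 CPM on day 1. On day 2, its highest, the libraries gave 265, 263 and 241 CPM, 25180 times the level of day 0 with a 95% counting interval from 4519 to 994587. No library of another day reached those of day 2. From day 1 to day 2 the log2 change was 0.97 ± 0.13 (adjusted p = 5.1e-07).

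After day 2 every called step of HES5 between consecutive sampled days was lower, 6 in number, more than for any other member. The libraries of day 4 held 160.5, 153 and 186 CPM, under all those of day 2 (-0.62 ± 0.13, adjusted p = 0.00022). Those of day 8 held 43.5, 40.7 and 47.9 CPM, -1.92 ± 0.14 from day 4 (adjusted p = 7.3e-14). Days 8 and 9 overlapped, and day 10 brought a further fall to 14.4, 17.9 and 12.2 CPM (-1.6 ± 0.15, adjusted p = 7.7e-10). On day 15 the values were 6.06, 6 and 3.62 CPM. HES5 shares 182 bases with AL139246.5, a noncoding gene on the opposite strand, and the strand used in counting is not given in the sources used here. The level listed for AL139246.5 was 0.306 to 0.363 CPM on day 0, 22.1 to 23.3 CPM on day 2 and 0.733 to 1.57 CPM on day 15, and reads of the 2 genes cannot be told apart in the shared stretch.

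HES4, the member that the mouse lacks, started with HES5 but stayed. Its libraries gave 0.636, 0.642 and 0.65 CPM on day 0 and 24.3, 25.7 and 23.7 CPM on day 1, a log2 change of 5.25 ± 0.16 (adjusted p = 3e-26) that was larger in size than that of 98.4% of all genes tested. On day 2 they gave 39.7, 38.2 and 41.2 CPM (0.69 ± 0.1, adjusted p = 8.7e-07). The means of days 4 to 8 lay between 54.5 and 59 CPM, and the libraries of days 4, 5 and 6 overlapped those of day 7, the highest. Between day 4 and day 8, while HES5 fell, HES4 had 54.6 ± 6.4 and 54.5 ± 1.1 CPM (0 ± 0.09, adjusted p = 0.98). By day 14 it held 36.6, 37.6 and 34.5 CPM, under every library of day 8 (-0.59 ± 0.09, adjusted p = 2.2e-06). On day 15, at 27.1 ± 3.7 CPM, every library was still above those of day 0.

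HEYL and HEY2 had their highest means on day 6 and both fell between day 9 and day 10. HEYL, a weaker repressor of the HEY group, had 3.12, 4.62 and 4.46 CPM on day 0 and 12.1, 12.9 and 15.3 CPM on day 1 (1.72 ± 0.19, adjusted p = 9e-10). Days 1 and 2 overlapped. It rose again to 20.6, 21 and 24.2 CPM on day 4 (0.82 ± 0.17, adjusted p = 0.00019) and had 32.5, 30.3 and 27.2 CPM on day 6, which days 5 and 7 overlapped. From 18.3, 16.4 and 21 CPM on day 9 it went to 6.11, 7.99 and 5.75 CPM on day 10 (-1.49 ± 0.18, adjusted p = 6.5e-08), with no overlap. Its lowest day was day 15, at 2.01 ± 0.73 CPM, so that the highest day was 14.9 times the lowest.

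HEY2, known from the development of the heart and arteries, was among the least abundant and moved up and down. The libraries gave 3.33, 4.71 and 3.47 CPM on day 0, 5.31, 5.98 and 5.62 CPM on day 1 and 3.25, 3.59 and 3.79 CPM on day 2, so that day 1 stood above both neighbours without overlap. The changes were 0.55 ± 0.17 (adjusted p = 0.005) and -0.67 ± 0.18 (adjusted p = 0.0038), and both calls were lost without the libraries of replicate 1 (adjusted p = 0.084 and 0.091). On day 4 HEY2 was at 6.99, 7.42 and 7.43 CPM (1.04 ± 0.17, adjusted p = 6.1e-06). It had 9.17, 9.32 and 10 CPM on day 9 and 3.13, 4.23 and 2.14 CPM on day 10 (-1.59 ± 0.17, adjusted p = 3.4e-09), its lowest day, whose libraries overlapped those of days 0 and 2. Afterwards its mean went from 3.16 ± 1 to 6.19 ± 1.2 CPM on day 15, whose libraries all lay above those of day 10, although no single step on the way was called.

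HES6, which favours differentiation, kept a narrow range, its highest day having 3.57 times the level of its lowest (3.38 for HEY2, 14.9 or more for the others). Its libraries gave 49.5, 48.7 and 51 CPM on day 0 and 52.6, 50.7 and 55.5 CPM on day 1, which overlapped (0.09 ± 0.13, adjusted p = 0.58). Day 2 held 75.4, 72.8 and 77.2 CPM (0.51 ± 0.13, adjusted p = 0.003, but 0.088 without the libraries of replicate 1). From 86.2, 78.1 and 89.1 CPM on day 4 it rose to 185, 177 and 171 CPM on day 8 (1.07 ± 0.12, adjusted p = 5.4e-09), and no library of another day reached those of day 8. On the next day the values were 85.8, 105 and 99 CPM (-0.88 ± 0.12, adjusted p = 3.9e-06). The summed level of the neuronal markers was 4267 CPM on day 8 and 5187 CPM on day 9. HES6 lies whole within AC012485.1, a noncoding gene on the opposite strand that had at most 0.31 CPM.

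HES1 and HEY1 had their highest means late, on day 14. HES1, a repressor of proneural genes in progenitors, had 4.6, 4.04 and 5.08 CPM on day 0 and 6.7, 6.34 and 5.84 CPM on day 1. The libraries did not overlap, but the call (0.47 ± 0.19, adjusted p = 0.032) was lost in 7 of 17 alternatives, among them without day 0 replicate 2 (adjusted p = 0.12), without day 1 replicate 1 (0.094) and with no filter on low counts (0.074). On day 2 it had 6.4, 5.54 and 4.82 CPM. The rise then went on through 17.3, 15.6 and 14.8 CPM on day 4 (1.5 ± 0.17, adjusted p = 7.9e-09) and 31.8, 34 and 30.5 CPM on day 8 (1.01 ± 0.14, adjusted p = 2.7e-07). From 33.7, 41.1 and 31.7 CPM on day 9 it went to 47.4, 61.9 and 55.9 CPM on day 10 (0.63 ± 0.13, adjusted p = 0.00038), the step at which HES5, HEY2 and HEYL fell. On day 14 the libraries gave 101, 95.1 and 91.5 CPM, 21-fold the mean of day 0, and those of days 13 and 15 overlapped them.

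HEY1 followed a course like that of HES1 at a lower level. It had 0.575, 0.459 and 0.464 CPM on day 0 and 1.06, 0.996 and 1.38 CPM on day 1 (1.17 ± 0.25, adjusted p = 0.00012), from 49 and 94 counts in all. On day 2 it had 0.53, 0.978 and 0.911 CPM and on day 4 2.03, 1.63 and 1.12 CPM (0.99 ± 0.22, adjusted p = 0.00051). That call was lost in all 3 fits of TPM (adjusted p from 0.094 to 0.32) and without the libraries of replicate 1 (0.17). The step from day 4 to day 5, with 3.25, 3.31 and 3.24 CPM on day 5, was called (1.04 ± 0.18, adjusted p = 0.00015), and so was the change from day 4 to day 8 (1.94 ± 0.17, adjusted p = 9.4e-13), where the libraries gave 5.55, 6.8 and 6.05 CPM. From day 10 on the means lay between 9.34 and 11.2 CPM, and the libraries of days 10 to 13 and of day 15 overlapped those of day 14. Neither HES1 nor HEY1 was called lower in any of the 14 steps tested, and they were called higher in 3 and 4.

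**Figure D2:**
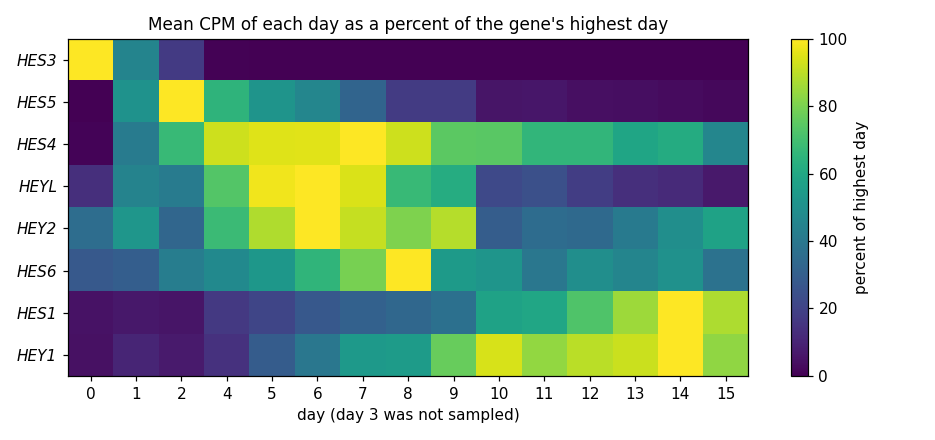
Mean CPM of each day as a percent of the highest day of the same gene (colour, 0 to 100), genes in rows and days in columns. The brightest cells move from HES3 on day 0 and HES5 on day 2 through days 6 to 8 to HES1 and HEY1 on day 14.

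On the TPM scale, which allows genes to be compared, the summed level of the 8 went from 289.7 ± 32.6 TPM on day 0 to 563 ± 17.3 on day 2, stood at 485 ± 8.53 on day 8 and was 287 ± 51.4 on day 15, the value it had started from. What changed was the make-up. HES3 held 75.1% of the sum on day 0 and HES6 21.3%. HES5 held 42.7% on day 1, 60.2% on day 2 and 47.4% on day 4. HES6 held 51.3% on day 8, with HES4 at 23% and HES5 at 13.2%. By day 15 HES1 held 38.1%, HES6 34.1% and HES4 20.1%, and HES5 only 2.79%. The 3 HEY genes were a small part of the sum. On day 6, where HEYL and HEY2 were highest, HEYL had 14.3 ± 1.2 TPM and HEY2 7.04 ± 0.64 TPM against 165 ± 28 TPM for HES5. On day 15, with HES5 down to 8.08 ± 2.2 TPM, HEY1 was at a like level of 8.71 ± 1.7 TPM.

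**Figure D3:**
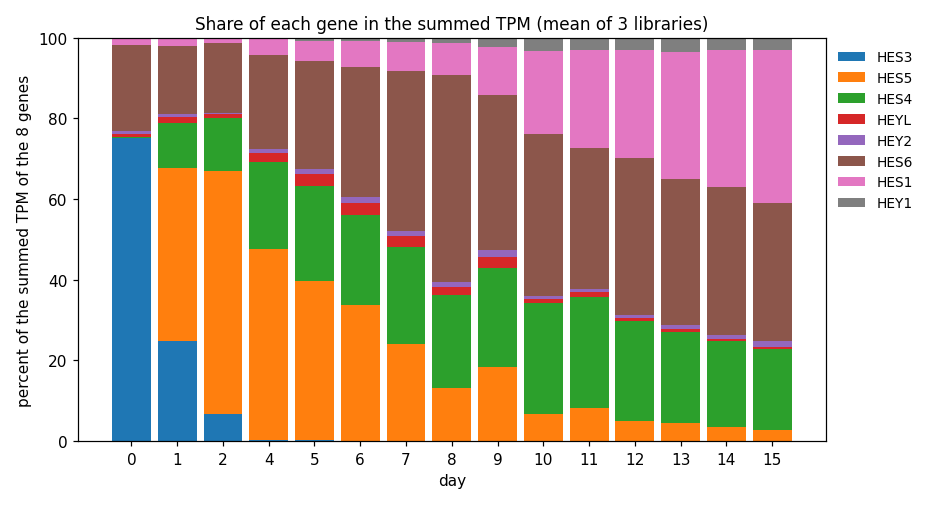
Share of each gene in the summed TPM of the 8 genes by day (stacked bars, mean of 3 libraries, in percent). HES3 fills most of day 0, HES5 most of day 2, HES6 about as much as the others together on day 8, and HES1 takes the largest part on day 15.

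Counted by comparison, most members were higher on day 1, the first day in RA and SAG, than on day 0. Between day 0 and day 1, 6 of 8 were higher (30.1% of all genes tested) and 1, HES3, was lower (31.7%; 61.7% in either direction), HES6 being the one not called. Between day 1 and day 2, 3 were higher and 2 lower, against 11.4% and 11.9% of all genes (23.3% in either direction). Here HES4, HES5 and HES6 rose, and HES3 and HEY2 fell. Without the libraries of replicate 1 that count was 3 in place of 5. Between day 2 and day 4, 5 were higher and 2 lower, against 19.5% and 15.9% (35.5% in either direction), with HES1, HES4, HEY1, HEY2 and HEYL up and HES3 and HES5 down. Consecutive comparisons share the libraries of the day between them, so they are not independent.

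From day 4 to day 8, 3 members were higher (HES1, HES6 and HEY1) and 2 lower (HES3 and HES5), against 27.1% and 26% of all genes (53.2% in either direction). From day 9 to day 10, 1 was higher (HES1) and 3 were lower (HES5, HEY2 and HEYL), against 15.9% and 13.7% (29.6% in either direction). The 3 that fell did so by -1.6, -1.59 and -1.49 on the log2 scale, changes larger in size than those of 97.1%, 97% and 96.5% of all genes. From day 8 to day 14, 2 were higher (HES1 and HEY1) and 5 lower (HES4, HES5, HES6, HEY2 and HEYL), against 21.6% of all genes higher and 21.6% lower (43.3% in all). HES5 and HEYL moved most there, from 43.5, 40.7 and 47.9 CPM to 7.19, 8.29 and 8.24 CPM (-2.48 ± 0.15) and from 20.7, 18.7 and 21.1 CPM to 3.14, 3.77 and 3.78 CPM (-2.5 ± 0.18). HES1 (1.58 ± 0.13) and HEY1 (0.87 ± 0.13) were the members that rose.

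**Figure D4:**
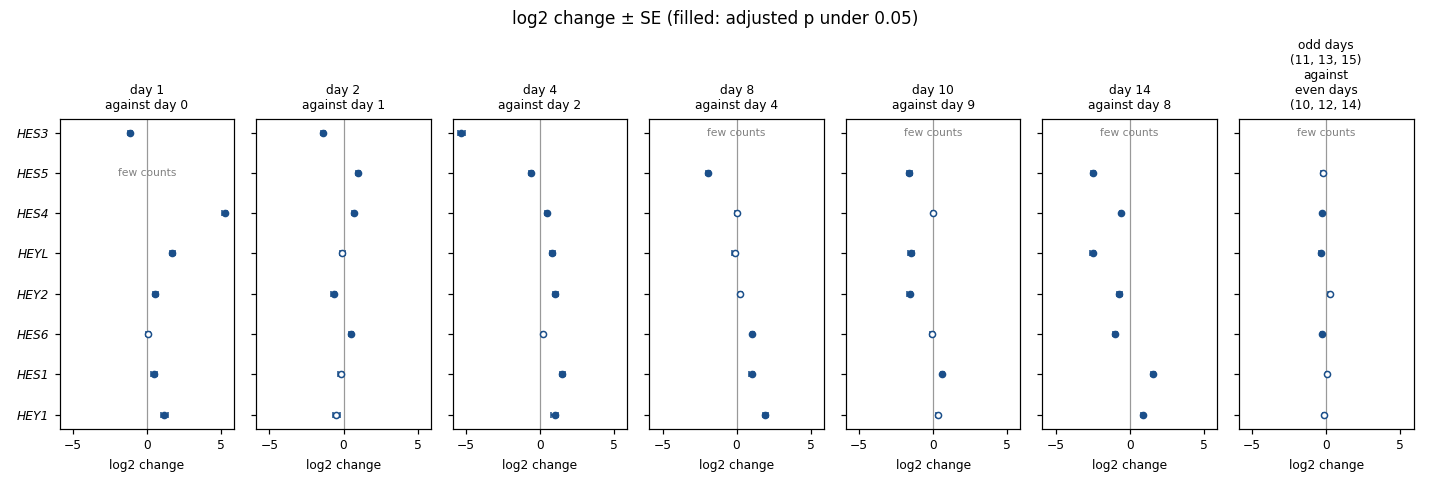
log2 change with its SE (x axis) of each gene (rows) in the 7 comparisons (panels), filled where the adjusted p was under 0.05. "Few counts" marks HES5 between days 0 and 1 and HES3 after day 4, where a fitted change depends on at most 4 counts on 1 side. HES5 turns from right to left between day 2 and day 4, and the filled points of HES1 and HEY1 all lie on the right.

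Of the 112 single steps between consecutive sampled days (8 members and 14 steps), 35 were called, 17 higher and 18 lower. That is 31.2%, against 15.7% over all genes, and the count was 21 without the libraries of replicate 1 and 39 at most under the other alternatives. The steps up to day 4 held 19 of the 35, or 54.3%, and 54.9% of the calls over all genes, so that the members were spread over time as all genes were. Between day 4 and day 5, HEY1 was the 1 member called, against 6.72% of all genes (3.95% higher, 2.78% lower), and between day 6 and day 7 it was HES5, lower, against 6.33% (3.43% higher, 2.9% lower), a call that was lost in 5 of 10 alternatives (adjusted p up to 0.41). Between day 7 and day 8, HES5 (-0.91 ± 0.13, adjusted p = 2.2e-05) and HEYL (-0.49 ± 0.16, adjusted p = 0.047) were lower, against 9.78% of all genes (5.19% higher, 4.58% lower), and the HEYL call was lost in 9 of 10 alternatives. Between day 8 and day 9, HEY1 was higher and HES4 and HES6 were lower, against 21.5% of all genes (10.5% higher, 11% lower), and of these the HES6 call held in all 10 alternatives.

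No member was called by edgeR between days 5 and 6, 10 and 11, 12 and 13 or 13 and 14. Of all genes 8.43% were called between days 5 and 6 (5.27% higher, 3.16% lower) and 5.55% between days 10 and 11 (1.67% higher, 3.87% lower). Between days 12 and 13 it was 3.52% (1.55% higher, 1.97% lower), and between days 13 and 14 it was 0.314% (0.216% higher, 0.0978% lower). The counts of members at an unadjusted p under 0.05 were 3, 1, 1 and 0, and DESeq2 called 1, 1, 0 and 0. HES5 was lower on day 12 than on day 11 (-0.57 ± 0.16, adjusted p = 0.037), against 3.41% of all genes (2.2% higher, 1.21% lower), a call lost in 6 of 10 alternatives. Between day 14 and day 15, 4 members were lower, against 4.05% of all genes (0.772% higher, 3.28% lower), HES4, HES5, HES6 and HEYL, by -0.42 to -0.84. In day 15 replicate 3 all 7 members above 1 CPM had the lowest value of the 3 libraries. Without the libraries of replicate 3 the adjusted p of the 4 was 0.052, 0.23, 0.22 and 0.4, so that none of these calls held.

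The labels say that medium was changed every other day, and the late days allow odd days (11, 13 and 15) to be set against even days (10, 12 and 14). HES6 had means of 92.6, 87.6 and 89.9 CPM on the even days and 70.5, 80.8 and 66.6 CPM on the odd ones (-0.31 ± 0.07, adjusted p = 0.0022). HES4 had 43.9, 38.7 and 36.2 CPM against 38.9, 34.7 and 27.1 CPM (-0.25 ± 0.05, adjusted p = 0.0013), and HEYL 6.62, 5.41 and 3.56 CPM against 7.33, 4.04 and 2.01 CPM (-0.37 ± 0.12, adjusted p = 0.027). These 3 were called lower on odd days and none was called higher, against 9.77% and 5.69% of all genes (15.5% in either direction). The odd days are on average 1 day later, and HES4 and HEYL were falling. In a contrast chosen after seeing the data, with days 11 and 13 against days 10, 12 and 14 weighted to the same mean day, no member was called by edgeR (5.98% of all genes were), and 1 had an unadjusted p under 0.05. There HES6 was at -0.24 (adjusted p = 0.071), HES4 at -0.1 (adjusted p = 0.4) and HEYL at 0.08 (adjusted p = 0.77). Without the libraries of replicate 1 the 3 calls were lost as well (adjusted p = 0.085, 0.075 and 0.13).

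The genes that feed and read the Notch signal were followed as 4 lists with 25 genes, all tested. Between day 0 and day 1, 15 were higher and 7 lower, against 30.1% and 31.7% of all genes, with a median log2 change of 0.25 against 0 for all genes. These background shares hold for each list in this step. Of the 5 ligands 4 were higher: DLL1, the Delta ligand of neurogenesis, had 4.19 ± 0.46 CPM on day 0 and 208 ± 2.6 CPM on day 1 (5.64 ± 0.22, adjusted p = 8e-21), DLL4 0.061 ± 0.081 and 15.4 ± 0.68 CPM (7.89 ± 0.29, adjusted p = 1.9e-23), and DLL3 4.94 ± 1.8 and 64.5 ± 1.1 CPM (3.7 ± 0.23, adjusted p = 2.3e-15). JAG1, the Jagged ligand, went from 49.6 ± 1.6 to 249 ± 4.2 CPM, and JAG2 was lower. Of the 4 receptors, 3 were higher, with NOTCH2 the most changed (221 to 361 CPM, 0.71 ± 0.08). These rises came in the same step as those of HES4, HES5 and HEYL, and as those of 7 of 8 neural progenitor markers and 5 of 6 mural markers (312 and 626 CPM in sum). The part of these markers was not tested.

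**Figure D5:**
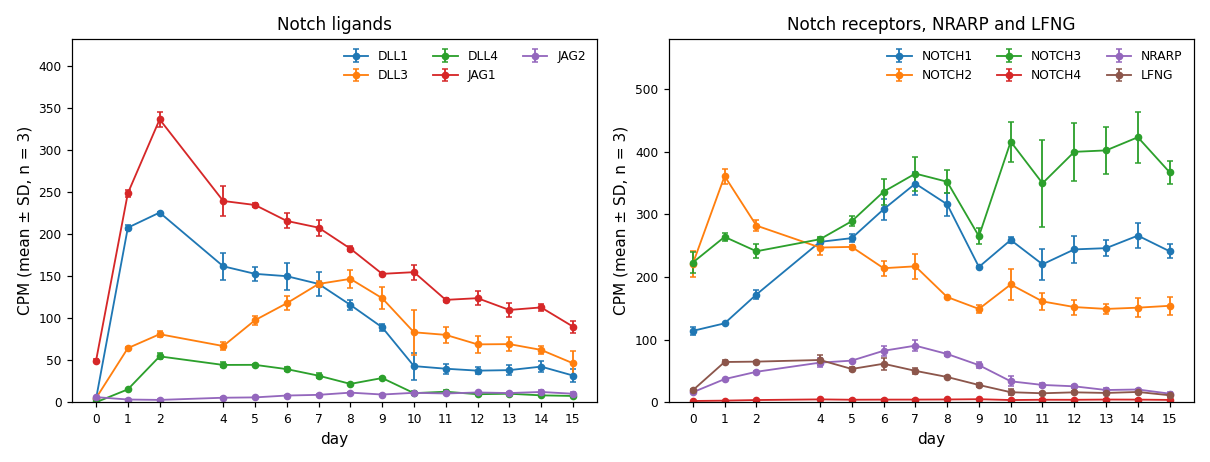
Mean CPM ± SD (n = 3) by day of the 5 Notch ligands (left) and of the 4 receptors with NRARP and LFNG (right). DLL1 and JAG1 peak on day 2, DLL3 on day 8 and NRARP on day 7, and NOTCH3 stays between 223 and 423 CPM.

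After day 2 the ligands did not move as a group. DLL1, DLL4 and JAG1 had their highest means on day 2, the day of HES5, with 226 ± 0.8, 54.7 ± 3.5 and 337 ± 9.3 CPM. DLL3, which acts inside the cell that makes it, rose from 67 ± 4.4 CPM on day 4 to 147 ± 11 CPM on day 8 (1.13 ± 0.18, adjusted p = 3e-06), the day of HES6. Between day 9 and day 10, 3 of the 5 ligands were lower and none was higher, against 13.7% and 15.9% of all genes: DLL1 went from 89.3 ± 4.2 to 43.1 ± 16 CPM (-1.05 ± 0.17), DLL4 from 28.9 ± 1.4 to 10.9 ± 2.6 CPM (-1.41 ± 0.12) and DLL3 from 124 ± 13 to 83.4 ± 27 CPM (-0.58 ± 0.18). NRARP, a Notch target that limits the signal, went from 59.3 ± 5.2 to 33.5 ± 8.2 CPM (-0.83 ± 0.13, adjusted p = 1.2e-05), while NOTCH3 rose from 265 ± 13 to 416 ± 32 CPM (0.65 ± 0.1, adjusted p = 2.8e-06). Over the 25 genes that step had 7 higher and 9 lower (15.9% and 13.7% of all genes) and a median of -0.08.

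In the same step, in which HES5, HEY2 and HEYL fell, all 8 neuronal markers were lower (13.7% of all genes), their sum going from 4880 to 5473 CPM on day 9 to 2795 to 4013 CPM on day 10. Of 6 mural and smooth muscle markers 5 were higher (15.9% of all genes), NOTCH3 among them, with sums of 434 to 458 and 632 to 992 CPM. Of 8 neural progenitor markers 5 were lower and 1 was higher. In day 10 replicate 3 the neuronal sum was the lowest of that day, 2795 CPM, and 5 of 7 members were at their lowest. Leaving out that or any other library of days 9 and 10 left 4 members called. The part of these markers in the fall was not tested.

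From day 8 to day 14 the ligands were lower in 4 of 5 cases and higher in none, against 21.6% of all genes in each direction, with DLL1 at -1.44 ± 0.17, DLL4 at -1.41 ± 0.13 and DLL3 at -1.23 ± 0.18, beside a median of -0.001 over all genes. NRARP fell from 77.1 ± 2.8 to 20.4 ± 1.4 CPM (-1.92 ± 0.14, adjusted p = 9.2e-14) and LFNG, a sugar transferase that tunes Notch receptors, from 40.4 ± 1.2 to 16.5 ± 1 CPM (-1.29 ± 0.15, adjusted p = 1.1e-08). HES1 and HEY1 rose over these days while most of the ligands fell. Radial glia and astrocyte markers went from 139 to 361 CPM in sum at the same time, with 4 of 8 higher and 2 lower (21.6% of all genes each way), and all 6 proliferation markers were lower. The glial markers called higher were SLC1A3, SOX9, NFIA and NFIB, and those called lower were FABP5 and GFAP. The part of these markers in the rise of HES1 and HEY1 was not tested.

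The proneural factors, which HES proteins repress, rose together with HES5 at the start. On day 1, 5 of the 6 tested were higher and none was lower, against 30.1% and 31.7% of all genes: NEUROG2 was at 0.654 ± 0.27 CPM on day 0 and 103 ± 0.83 CPM on day 1, and NEUROG1 was listed at 0 and had 11 ± 0.49 CPM. Between day 9 and day 10, 4 were lower and 1 higher (13.7% and 15.9% of all genes), with NEUROD1 (-1.24 ± 0.13) and NEUROG2 (-1.07 ± 0.11) the most changed of those above 5 CPM. From day 8 to day 14, 4 were lower and 2 higher (21.6% of all genes each way), with NEUROG1 (-1.68 ± 0.13), NEUROD1 (-1.62 ± 0.13) and NEUROG2 (-1.61 ± 0.11) the most changed of those above 5 CPM. These 3 were thus lower in the comparison in which HES1 and HEY1 were higher.

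Of the 6 genes listed under the name TLE, TLE4 rose on day 1 from 97.3 to 282 CPM (1.53 ± 0.06, adjusted p = 8e-24). In that step 4 of 6 were lower (31.7% of all genes), among them TLE1 at 41.6 and 17.2 CPM (-1.28 ± 0.06). TLE6, also among the 4, was near nil on both days (0.102 and 0.0144 CPM). TLE1 then rose at day 2, day 4 and day 8, to 129 CPM, and was lower on day 14. TLE2, at 0.625 CPM on day 8, reached 8.1 CPM on day 14 (3.7 ± 0.32, adjusted p = 4e-12). The ID proteins, which sequester proneural partners, had a summed level of 368 CPM on day 9 and 529.8 CPM on day 10, and between days 9 and 10 ID2 (1.03 ± 0.14) and ID3 (0.72 ± 0.13) of 4 were higher and none was lower (15.9% and 13.7% of all genes).

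Of the other genes of the family, 4 were tested and all 4 were lower on day 1 than on day 0 (31.7% of all genes). HES7, part of the segmentation clock of the presomitic mesoderm, had its highest mean on day 0 with 2.17 to 8.96 CPM over 3 libraries, and 0.41 CPM on day 1 (-3.54 ± 0.48, adjusted p = 4.3e-08). HES2 stayed at a mean of 3.29 CPM or less. HELT had too few counts to be tested. BHLHE40, a repressor related to HES proteins and known from the clock of the day and from low oxygen, had 2.31 CPM on day 0 and 0.154 CPM on day 1, and went from 6.49 ± 0.55 CPM on day 9 to 18.4 ± 4.7 CPM on day 10 (1.5 ± 0.27, adjusted p = 5.2e-05), up in the same step as HES1.

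Over the 15 day means of log2 CPM, which share libraries across genes and are given as a description, the closest pair of members was HES1 and HEY1 (Pearson r = 0.97), followed by HES4 and HES5 (0.83), HES5 and HEYL (0.73) and HEY2 and HEYL (0.69). HES3 ran opposite to HEY1 (-0.94) and HES1 (-0.92). Day 0, with 1 count of HES5 and little HES4, weighs heavily here. Over the 14 other days, a choice made after seeing the data, HES4 and HES5 had an r of 0.45, HES5 and HEYL 0.87, HEY2 and HEYL 0.66, and HES1 and HEY1 0.96. HES1 and HES5 had -0.09 with day 0 and -0.91 without it, running opposite from day 1 on. Among 12395 other protein-coding genes with at least 5 CPM on some day, the nearest to HES1 were ANKRD54 (0.996), HOXA6 (0.993) and NTNG1 (0.991), and 404 genes had an r above 0.95 with it. For HEY1 they were ANGPT1 (0.993), NKIRAS2 (0.991) and CDK17 (0.989), with 441 above 0.95. A steady rise was thus a common course. HES5 was nearest to ZBTB16 (0.991), the progenitor factor SOX1 (0.989) and the ligand DLL1 (0.987), with 40 above 0.95. HES4 was nearest to FOXP4 (0.995), DPF3 and NEUROG1 (both 0.99), and HEYL to GREB1 (0.984), HIC2 (0.983) and KCNJ12 (0.982). HES3 was nearest to MREG, ARF3 and ALDH9A1 (all 0.991). HES6 and HEY2 had no gene above 0.95: the nearest to HES6 were UBE2L6 (0.93), PLCD1 (0.922) and LGR5 (0.914), and the nearest to HEY2 were SNN (0.868), VEZF1 (0.828) and MGAT5 (0.827). With Spearman's rank correlation in place of Pearson's, 4 of these 24 genes were named again.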

How the data were processed

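Polyadenylated RNA of 45 H9 libraries, 3 on each of 15 days, was analysed, and samples of the series from mouse were left out. The submitters' processing notes name bcl2fastq 2.20.0, RSEM and GRCh38. Which aligner, annotation release and strand setting were used is not given in the sources used here. The expected counts are deposited as the authors' RSEM estimates, 92.5% of them whole, and were rounded here. The authors' RSEM run also gave the deposited TPM, a level scaled for length and depth.

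Of 58233 genes, 57895 were matched to GENCODE release 29. The model was edgeR's (4.0.16, under R 4.3.3) with TMM, the default filter by day and the quasi-likelihood test. Each day was a level of 1 factor, which left 30 residual degrees of freedom, and TMM factors ran from 0.9247 to 1.061. All adjusted p-values are Benjamini-Hochberg values from this fit over 19436 genes, unless another tool is named. An exact permutation test of 3 against 3 cannot go below 0.1. On data simulated for day 14 against day 8 over 19436 genes, 90% of genes changed 1.5-fold and 98% of those changed 2-fold were recovered, and 3.98% of calls were of unchanged genes. The changed genes were drawn from those above 5 CPM on day 8, so the recovery does not cover genes of lower level. No pair of libraries held identical values, and replicates differed by 2.06 to 24.8 times the sampling variance. Counting intervals and floors cover counting error only.

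The members and the lists (Notch pathway, proneural, TLE, ID and cell type markers) were chosen with earlier results of these data known. Every member was described. From a list, up to 3 genes a comparison were named, by size of change among those called with at least 5 CPM in 1 group, or to complete a list's account after values were seen. Likeness was ranked among protein-coding genes with at least 5 CPM on some day. Alternatives were DESeq2 1.42.0, limma 3.58.1 on log2(TPM + 1) and log2(TPM + 0.1), no filter, only the days compared, a replicate block, left-out libraries and Spearman's rho. The weighted contrast of odd and even days and the correlations without day 0 were added after seeing the data. Python 3.11.15 drew the figures.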

Additional observations from a re-analysis of the deposited data

How the results depend on the processing

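Of the log2 changes recomputed under alternatives, 1006 kept direction and side of the threshold, 83 lost the call, 8 gained one and 14 changed sign. The cause of these changes was not tested. With whole replicates or single libraries left out, members called ranged from 5 to 7 between days 0 and 1, 3 to 5 between days 1 and 2, 6 to 7 between days 2 and 4, and 0 to 4 between odd and even days, and called steps from 21 to 34. They stayed at 8 in the F test, 5 between days 4 and 8, 4 between days 9 and 10 and 7 between days 8 and 14. Between odd and even days, 1 member was called with only the days compared in the fit and 0 in the weighted contrast, where HES1 was at -0.06, HES5 at 0.2 and HEYL at 0.08. Spearman's rho kept 4 of 24 like genes. All other changes of sign were of members not called and came with libraries left out: HEYL from day 1 to 2 (-0.23 to 0.05), HES4 (-0.17 to 0.18) and HES6 (-0.25 to 0.08) from day 9 to 10, and HES1 between odd and even days (-0.03 to 0.14). Over all genes, calls without replicate 1 were 2348 against 4530 from day 1 to 2, 4438 against 6892 from day 2 to 4 and 2760 against 5756 from day 9 to 10. Between odd and even days 3004 genes were called, 962 without replicate 1, 1620 with only those days, 1162 in the weighted contrast and 1526 to 1920 with limma. Replicate numbers did not pair libraries: deviations of same-numbered libraries had median correlations of 0.003, 0.003 and -0.009 over 105 pairs of days, and 19 of 45 libraries correlated best with their own number. With the replicate block the 7 comparisons kept their counts of members, and of single steps HEYL from day 7 to 8 (adjusted p = 0.052, edgeR) and HES5 from day 14 to 15 (0.058) lost their calls. Depth limits HES3 after day 6, with at most 4 counts a day, and HEY1 up to day 2, with at most 94.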
